A study of Homo sapiens with 14 samples.

Results

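The clustered protocadherins are the protein-coding genes of 3 neighbouring clusters on chromosome 5, PCDHA (alpha), PCDHB (beta) and PCDHG (gamma), taken here by their symbols. This gave 53 genes of the 57792 in the old and young tables, of which 15 were alpha, 16 beta and 22 gamma genes. All 53 were also listed among the 54628 symbols of the WT and HMGB2 KD tables and the 38716 symbols of the ICM tables.

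RNA was poly(A)-selected from IMR90, a widely used line of fetal human lung fibroblasts with a limited lifespan, in 7 groups. I79 young and I10 young were proliferating cells of 2 isolates of the line, and I79 old and I10 old were the same isolates passaged into replicative senescence. I79 ICM was the I79 isolate given inflachromene (ICM), which is a compound known to bind HMGB1 and HMGB2, a pair of abundant chromatin proteins. WT and HMGB2 KD were IMR90 cells of an isolate the labels do not name, without and with siRNA against HMGB2. The labels do not say whether WT received a control siRNA or I79 young the solvent, and I79 young served as the reference for ICM. The titles list 2 replicates for each group, but each old or young group came as 1 column of values, whereas ICM, WT and HMGB2 KD had a table for each of 2 replicates.

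Clustered protocadherins are cadherin-like proteins of the cell surface, best known in neurons, where each cell uses its own choice of them and where matching proteins on facing membranes recognise each other. Each alpha and gamma gene has its own promoter and large variable first exon, which is spliced to constant exons shared by the whole cluster, whereas each beta gene stands on its own. Most promoters carry a short conserved element around the letters CGCT, and the choice among them depends on CTCF and cohesin, which loop promoters to distant enhancers. Because of the shared exons, part of the reads of an alpha or gamma gene cannot be given to it by sequence, so sums over a cluster are safer than single genes.

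The shared and the private parts of these genes are shown first, because they set what the read counts can tell apart. The first constant exon of the gamma cluster lies in GRCh37 at chr5:140874374-140874432 on the plus strand, is coding, and occurs in all 22 gamma genes. Its alpha counterpart lies at chr5:140358534-140358592 and occurs in all 15 alpha genes.
gamma constant exon 1: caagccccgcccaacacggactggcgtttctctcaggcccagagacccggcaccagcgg
alpha constant exon 1: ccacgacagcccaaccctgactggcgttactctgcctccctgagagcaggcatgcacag
Both were 59 bases long and had the same base at 39 positions (66.1%). A second coding constant exon of 89 bases followed in each cluster, at 140884960 to 140885048 for gamma and at 140362060 to 140362148 for alpha, with the same base at 32.6% of positions. Of all 31-base words in a gene's transcripts (GENCODE), a median of 55.3% were found in no other gene for gamma members (26.6% to 62.1%), compared with 77.9% for beta (41.8% to 93.9%) and 46.3% for alpha (26.5% to 71.4%). The lowest share in the beta cluster was that of PCDHB8 and the lowest in the gamma cluster that of PCDHGB4, so these 2 had the least private sequence of their clusters.

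Promoter windows (250 bases before to 50 after the start, RefSeq, GRCh38.p14) were found for 47 of the 53 members. The element follows for 4 beta members with high ratios of old over young and for PCDHB15 with a low one, for gamma members from the upstream and the downstream end of the cluster, and for 2 alpha members for comparison, with the CGCT core in capitals.
PCDHB16: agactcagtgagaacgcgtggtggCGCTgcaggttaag
PCDHB13: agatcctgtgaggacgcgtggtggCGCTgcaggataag
PCDHB14: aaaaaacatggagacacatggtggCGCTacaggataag
PCDHB10: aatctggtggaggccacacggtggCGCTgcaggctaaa
PCDHB15: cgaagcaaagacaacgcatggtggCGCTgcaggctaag
PCDHGA2: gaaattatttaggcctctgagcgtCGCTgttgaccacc
PCDHGA3: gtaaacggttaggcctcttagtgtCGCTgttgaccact
PCDHGA4: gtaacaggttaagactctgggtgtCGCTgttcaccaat
PCDHGA9: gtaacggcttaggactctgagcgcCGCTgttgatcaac
PCDHGA10: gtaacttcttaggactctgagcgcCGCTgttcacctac
PCDHGC3: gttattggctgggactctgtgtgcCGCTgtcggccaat
PCDHA1: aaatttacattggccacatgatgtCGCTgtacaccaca
PCDHA10: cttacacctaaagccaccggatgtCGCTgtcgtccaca
In GRCh38.p14, on the plus strand, these stretches lie at chr5:141182302-141182339 for PCDHB16, chr5:141223255-141223292 for PCDHB14, chr5:141354952-141354989 for PCDHGA4 and chr5:141475872-141475909 for PCDHGC3, each upstream of the annotated start. The core began 61, 64, 45 and 70 bases before the start in these 4 genes. The beta promoters shared the form GGNGGCGCT, which was present on either strand for 13 of 14 beta genes and for none of 13 alpha or 20 gamma genes. It was present in 3.74% of all 35116 promoter windows. Members were counted by gene with a match in any window, and the 20 gamma genes had 25 windows, whereas the share over all is by window. The form GNCGCTGT was present for 17 of 20 gamma, 5 of 13 alpha and 1 of 14 beta genes and in 4.35% of all windows. Both forms contain the CGCT core, which was present in 70.0% of all windows, and in PCDHB3 both forms overlapped at 1 core. These forms were spelled out after the promoters had been viewed, and a match is a description of letters, not a bound site. Members that were higher in old cells (PCDHGA4) and lower in old cells (PCDHGC3) both carried the second form.

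The old and young columns held 14991385 to 20632959 estimated counts, the ICM libraries 13290131 and 10971132 reads, and the WT and HMGB2 KD libraries 33561766 to 41168932 counts. All 10 fibroblast markers (collagens, PDGF receptors, VIM, THY1, DCN and LUM) exceeded 1 CPM (CPM being counts scaled to library size) in every library. Of 5 epithelial markers, at most 1 exceeded 1 CPM. Of 5 endothelial markers, 4 had values (PECAM1 had none), and between 1 and 3 exceeded 1 CPM. Of 4 immune markers only CD68, a lysosomal protein, exceeded 1 CPM, and its sum with the others was 24.6 and 26.8 CPM in the young columns and 161 and 81.7 CPM in the old columns, with CD3E at 0 in all 4. The neuronal list, the cell type in which these genes are best known, summed to 21.8 and 27.5 CPM in young and 4.74 and 3.88 CPM in old columns, mostly from SYT1 in young and SNAP25 in old columns, with ELAVL4 at 0 in all 4. In the ICM libraries the neuronal list summed to 6.14 and 6.30 CPM, the immune list to 60.1 and 66.4 CPM and the fibroblast list to 13389 and 13765 CPM, compared with 33355 CPM for the fibroblast list in I79 young. The part of these markers in the results below was not tested. HMGB2, the targeted gene, was at 27.1 and 27.3 CPM before and 3.22 and 3.64 CPM after knockdown (WT and HMGB2 KD libraries). It was at 122 and 141 CPM in the young and 38.2 and 46.3 CPM in the old columns. The WT and HMGB2 KD libraries were counted and scaled apart from the old and young columns, so levels cannot be compared between them.

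In all old and young columns the gamma cluster was the most abundant of the 3, and the alpha cluster was close to absent. The gamma genes summed to 405 TMM-scaled CPM in I79 young and 415 in I10 young, and to 329 and 340 in the old columns of these isolates. The beta genes summed to 12.4 CPM in both young columns, 49.7 in I79 old and 21.6 in I10 old. The alpha genes summed to 13 (I79 young), 11 (I79 old), 28 (I10 young) and 9 (I10 old) estimated counts, which is at most 1.46 CPM. The order gamma, beta, alpha also held per transcript length, with gamma sums of 125 to 187 TPM, beta sums of 5.17 to 23.9 TPM and alpha sums of 0.116 to 0.617 TPM.

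**Figure D1:**
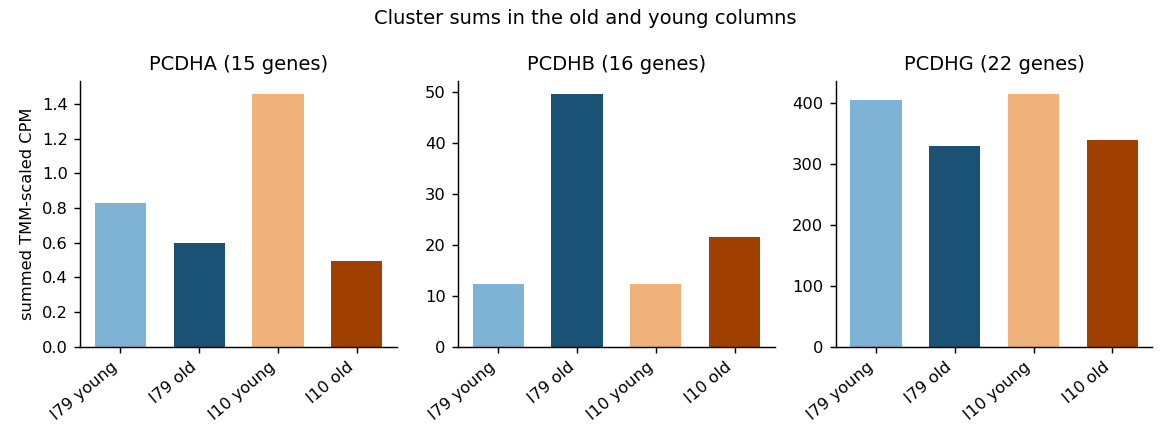
Summed TMM-scaled CPM of the alpha, beta and gamma clusters (separate axes, each from 0) in the 4 old and young columns, 1 bar a column and no error bars since each group has 1 column. The beta sum stands at 12.4 CPM in both young columns and at 49.7 and 21.6 CPM in the old ones, whereas the gamma sum is lower in both old columns.

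The old and young columns ask what happens to these genes on passage into replicative senescence. The beta sum was 4.01-fold higher in I79 old than in I79 young (log2 ratio 2.00, 95% counting interval 1.78 to 2.23) and 1.74-fold higher in I10 old than in I10 young (0.80, 0.56 to 1.04). The gamma sum was lower in both isolates, by a log2 ratio of -0.30 in I79 (-0.35 to -0.25) and -0.29 in I10 (-0.34 to -0.24). These intervals are exact (Clopper-Pearson) and cover counting error only, and with 1 column a group the sums had no test. Scaling by library totals in place of TMM lowered all genes by a median of 0.16 (I79) and 0.26 (I10) on the log2 scale and kept both directions. In bulk RNA, fewer cells that use a gene and less of its RNA in each cell cannot be told apart.

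Single genes were tested with edgeR's quasi-likelihood test over both isolates, which were the replicates (1 residual degree of freedom), and a call needed an adjusted p below 0.01 with a log2 fold change beyond 0.6 in either direction. Of the 53 members, 32 passed the filter on low counts, 10 beta and all 22 gamma genes. Of these, 2 were called with a higher and 2 with a lower level in old cells, beside 9.57% of all 15115 genes called (5.75% higher and 3.82% lower). The 32 members had a median log2 fold change of 0.20, compared with -0.01 over all genes tested. With an adjusted p under 0.05 in place of 0.01, 6 were higher and 5 lower, beside 25.5% of all genes. Within the isolates, past 0.6 on the log2 scale and with no test, 13 of the 32 were higher and 8 lower in I79 (all genes, 21.6% and 19.6%), and 9 were higher and 7 lower in I10 (all genes, 18.5% and 18.8%).

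In the beta cluster, members each make a complete cell-surface receptor from their own exon. Of its 10 tested genes, 9 had a log2 fold change above 0, with a median of 1.53. Of all 15115 genes tested, 7474 were above 0, with a median of -0.01. The filter can pass a low gene through its old columns alone. PCDHB12 passed in this way, with 5 estimated counts in each young column and 33 and 11 in the old ones. PCDHB9, with 7 and 15 in the young and 74 and 26 in the old columns, also needed an old column to pass. The count and median of the beta genes may therefore lean upward. PCDHB16 (chr5:140561962-140565801, plus strand, GRCh37), which lies between PCDHB8 and PCDHB9, was the only tested beta gene called. It stood at 0.896 CPM (I79 young, 14 estimated counts), 6.56 (I79 old, 121), 0.730 (I10 young, 14) and 3.98 (I10 old, 72). Both old columns lay above both young columns, and the fitted log2 fold change was 2.65 (SE 0.33, edgeR adjusted p 0.0082). A further 2 beta genes passed an adjusted p of 0.05 but not 0.01. PCDHB14 stood at 1.86, 7.60, 1.77 and 3.81 CPM in the same order of columns (log2 fold change 1.57, SE 0.34, adjusted p 0.029 by edgeR). PCDHB13 stood at 1.73, 5.81, 1.41 and 3.32 CPM (1.49, SE 0.32, adjusted p 0.027 by edgeR). For both genes, too, the old columns did not overlap with the young ones. The test used the same columns, so this adds no support, and how many of all genes show it was not counted.

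The other tested beta genes were not called, and most had larger ratios in I79 than in I10. PCDHB9 had log2 ratios of 2.88 in I79 and 0.79 in I10, PCDHB10 of 2.59 and 0.52, PCDHB2 of 1.98 and 0.47, and PCDHB12 of 2.14 and 0.95. Their fitted log2 fold changes were 1.96 (SE 0.65), 1.58 (SE 0.60), 1.35 (SE 0.51) and 1.89 (SE 0.58). For these 4 genes the counting interval in I79 lay above 0, whereas that in I10 included 0. PCDHB5 and PCDHB7 were higher in I79 old (log2 ratios 1.18 and 0.57) and lower in I10 old (-0.45 and -1.03), and their fitted values were 0.44 (SE 0.57) and -0.20 (SE 0.57). PCDHB15 held 23 and 37 estimated counts in the young and old columns of I79, and 24 and 26 in those of I10 (0.32, SE 0.38). The size of the difference between the isolates was not tested, since each isolate had 1 column a group.

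PCDHB8 did not pass the filter and so had no test, but had the largest ratio of the beta cluster in I79. It held 2 estimated counts (I79 young), 85 (I79 old), 1 (I10 young) and 10 (I10 old), and 41.8% of its 31-base words were its own. DESeq2, run without that filter, called PCDHB8 higher in old cells (log2 fold change 4.48, SE 1.38, adjusted p 0.0087), as it did PCDHB16. In that fit 2117 of all 57792 genes were called. The call of PCDHB8 rests largely on the 85 counts of I79 old. PCDHB11, with 6, 21, 5 and 6 estimated counts, also missed the filter. The other 4 untested beta genes, PCDHB1, PCDHB3, PCDHB4 and PCDHB6, held at most 9 estimated counts in any column. With no filter, edgeR fitted log2 fold changes of 0.24, -0.12, -0.29 and 1.03 for these 4, in this order. It fitted 1.02 for PCDHB11 and 4.54 for PCDHB8. Per transcript length, PCDHB2 was the highest beta gene in I79 old at 4.84 TPM, followed by PCDHB10 at 2.85, PCDHB14 at 2.78 and PCDHB8 at 2.67 TPM. In both young columns no beta gene reached 1 TPM. The rank of PCDHB2 depends on the scale. By CPM in I79 old it stood at 4.61, below PCDHB14 (7.60), PCDHB16 (6.56), PCDHB10 (5.97) and PCDHB13 (5.81). From I79 young to I79 old it went from 0.453 to 4.84 TPM, but from 1.09 to 4.61 CPM.

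**Figure D2:**
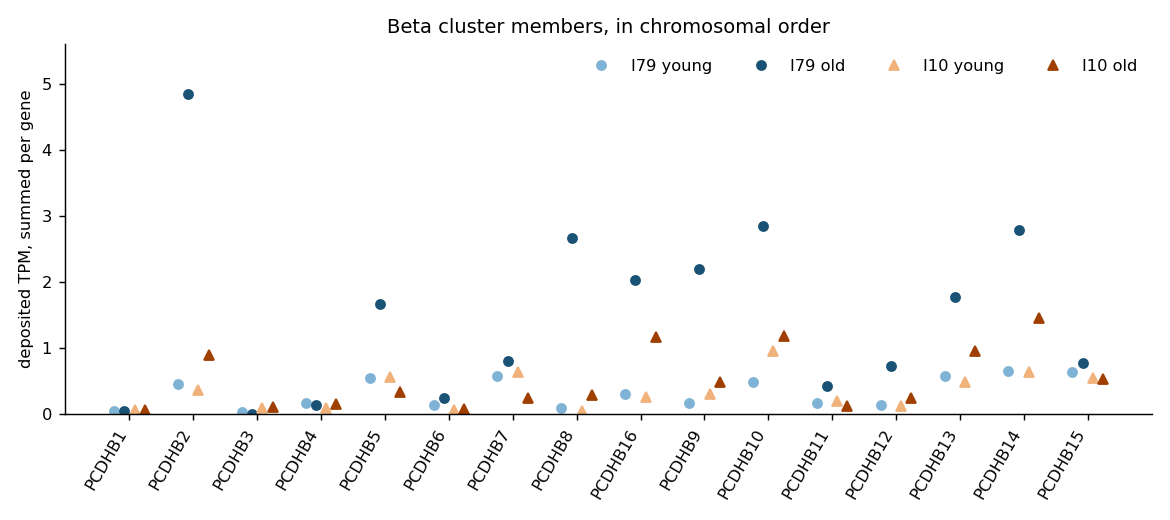
Deposited TPM summed per gene for the 16 beta members in chromosomal order, with circles for the I79 and triangles for the I10 columns, light for young and dark for old (1 column each, no error bars). PCDHB2, PCDHB8, PCDHB16, PCDHB9, PCDHB10 and PCDHB14 stand above 2 TPM in I79 old, and the I10 old values lie lower, with PCDHB14 the highest at 1.45 TPM.

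In the gamma cluster the direction of the difference between old and young went with position on the chromosome. All of its 8 upstream members, PCDHGA1 to PCDHGB3, had a fitted log2 fold change above 0 and all 14 downstream members, PCDHGA6 to PCDHGC5, one below 0. The Spearman correlation between position in the cluster and the log2 ratio of old over young was -0.79 in I79 and -0.82 in I10 over the 22 genes. These genes share libraries and constant exons, so the coefficient is a description. Within I79, 8 of the 8 upstream and 4 of the 14 downstream members were higher in old, and within I10, 8 of 8 and 2 of 14. With library totals in place of TMM these counts were 7 and 1 in I79 and 5 and 0 in I10. The boundary after PCDHGB3 was set after the values had been seen.

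Summed, the upstream part stood at 44.7 CPM (I79 young), 94.9 (I79 old), 42.7 (I10 young) and 77.0 (I10 old), and the downstream part at 360, 234, 372 and 263 CPM. The upstream part thus held 11.0% of gamma cluster reads in I79 young and 28.9% in I79 old, and 10.3% and 22.7% in I10. This share needs no scaling between libraries. With counts scaled to the variable exons it was 14.4% and 33.5% in I79 and 12.8% and 25.8% in I10.

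**Figure D3:**
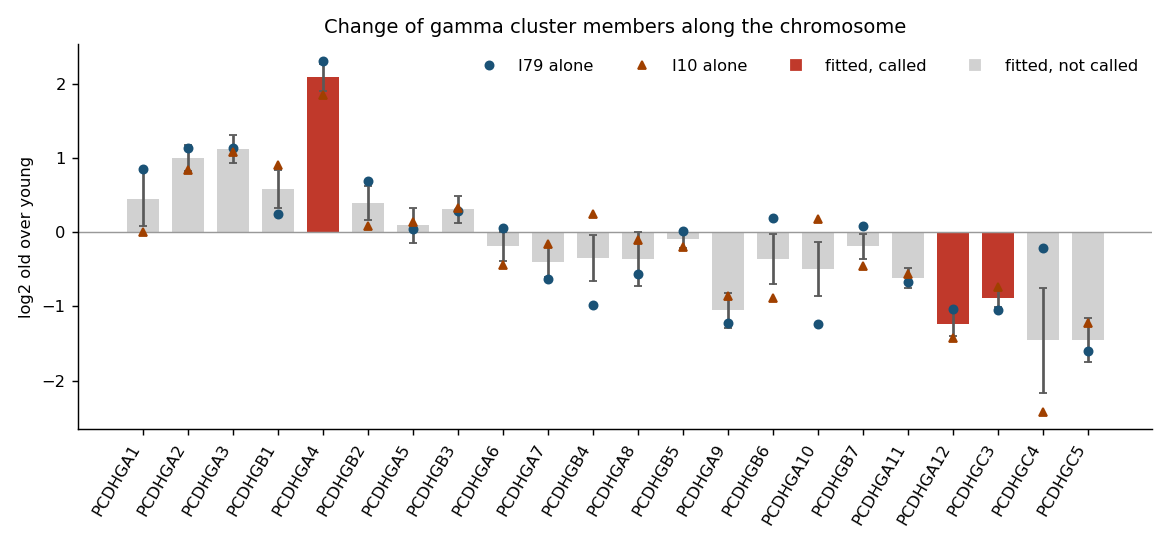
Log2 ratio of old over young for the 22 gamma members in chromosomal order, with bars for the fitted value over both isolates (± SE), red where called, and points for I79 and I10 alone. The bars lie above 0 from PCDHGA1 to PCDHGB3 and below 0 from PCDHGA6 to PCDHGC5, with PCDHGA4 the highest at 2.09.

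PCDHGA4 (chr5:140734588-140892542, plus strand, GRCh37), like the other gamma genes a receptor with a private ectodomain and the shared cytoplasmic end, led the upstream part. It stood at 6.40 CPM (I79 young, 100 estimated counts), 32.1 (I79 old, 591), 6.83 (I10 young, 131) and 24.9 (I10 old, 450). Both old columns lay far above both young ones (2.09, SE 0.18, edgeR adjusted p 0.0047). Its share of gamma cluster reads was 1.58% in I79 young and 9.76% in I79 old, and 1.65% and 7.32% in I10. PCDHGA3 and PCDHGA2, which lie further upstream, followed. PCDHGA3 stood at 4.54, 10.1, 4.59 and 9.84 CPM (1.12, SE 0.19, adjusted p 0.016 by edgeR). PCDHGA2 stood at 8.51, 18.8, 6.21 and 11.2 CPM (1.00, SE 0.17, adjusted p 0.017 by edgeR). Neither reached 0.01. For both the old and young columns did not overlap, but the test used the same columns, so this adds no support. The other upstream members had fitted values of 0.58 (PCDHGB1, SE 0.26), 0.45 (PCDHGA1, SE 0.37), 0.39 (PCDHGB2, SE 0.23), 0.31 (PCDHGB3, SE 0.18) and 0.10 (PCDHGA5, SE 0.24), with adjusted p between 0.15 and 0.77 by edgeR.

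Of the downstream members, PCDHGC3 and PCDHGA12 were called lower in old cells. PCDHGC3 (chr5:140855514-140892544) is the first of the C-type genes, which close the cluster and in neurons are used apart from the choice among the others. It was the most abundant member in every old and young column, at 74.9 TPM (I79 young), 36.7 (I79 old), 82.2 (I10 young) and 40.9 (I10 old). On the CPM scale it stood at 145, 70.4, 152 and 91.0 in the same order, and both old columns lay below both young ones (log2 fold change -0.89, SE 0.12, adjusted p 0.0095 by edgeR). Without isolate as a covariate this call was lost (adjusted p 0.011 by edgeR). Its share of gamma cluster reads was 35.9% and 36.7% in the young and 21.4% and 26.8% in the old columns. PCDHGA12 (chr5:140810074-140892542), the last gene of the A type, stood at 23.5, 11.4, 24.4 and 9.01 CPM (-1.23, SE 0.17, adjusted p 0.0097 by edgeR).

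A further 3 downstream genes had an adjusted p under 0.05 but not 0.01 by edgeR. In each the old columns lay below the young ones, which adds no support beyond the test of these columns. PCDHGC5 stood at 4.16, 1.30, 5.69 and 2.38 CPM (log2 fold change -1.45, SE 0.30, adjusted p 0.025). PCDHGA9 stood at 5.70, 2.39, 7.93 and 4.31 CPM (-1.05, SE 0.24, adjusted p 0.032). PCDHGA11 stood at 24.6, 15.4, 23.5 and 15.8 CPM (-0.62, SE 0.13, adjusted p 0.028).

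The remaining downstream members were not called. PCDHGB5 and PCDHGB7, the next most abundant genes after PCDHGC3 in the young columns, had fitted values near 0. PCDHGB5 stood at 19.8 TPM (I79 young), 18.6 (I79 old), 20.1 (I10 young) and 15.0 (I10 old), with a log2 fold change of -0.09 (SE 0.11). PCDHGB7 stood at 11.7, 11.0, 13.7 and 8.49 TPM (-0.19, SE 0.17). PCDHGA6, PCDHGA7, PCDHGA8 and PCDHGB6 had fitted values of -0.19, -0.40, -0.36 and -0.36 with SE of 0.19 to 0.36. PCDHGC4 held 15 estimated counts in both I79 columns, 49 in I10 young and 7 in I10 old (-1.46, SE 0.71).

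PCDHGB4 and PCDHGA10 were lower in I79 old but not in I10 old. PCDHGB4 held 343 estimated counts (I79 young), 205 (I79 old), 384 (I10 young) and 431 (I10 old), and with TMM scaling its log2 ratios were -0.97 in I79 (-1.24 to -0.73) and 0.25 in I10 (0.05 to 0.45). PCDHGA10 was at 19.1 CPM in I79 young and 8.03 in I79 old, but at 22.3 in I10 young and 25.4 in I10 old. Their fitted values over both isolates were -0.35 (SE 0.32) and -0.49 (SE 0.36), and the difference between isolates was not tested. With library totals the I10 ratios were -0.01 for PCDHGB4 (-0.21 to 0.19) and -0.07 for PCDHGA10 (-0.27 to 0.12), so that neither was higher in I10 old.

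**Figure D4:**
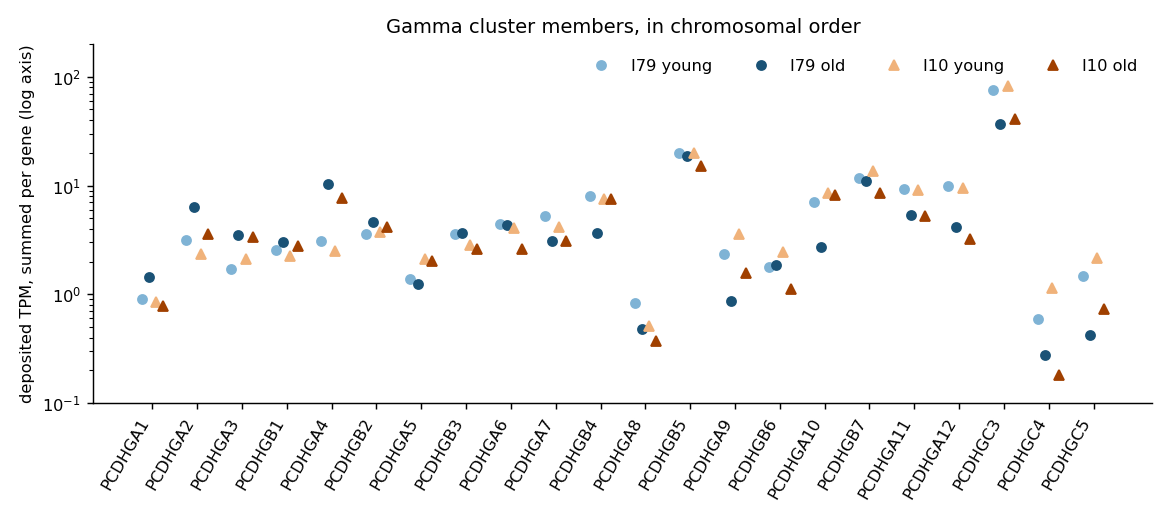
Deposited TPM summed per gene (log axis) for the 22 gamma members in chromosomal order, with circles for the I79 and triangles for the I10 columns, light for young and dark for old (1 column each, no error bars). PCDHGC3 stands highest in all 4 columns, between 36.7 and 82.2 TPM, and PCDHGA4 shows the widest gap between old and young among the first 8 genes.

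Between 83.4% and 85.3% of gamma cluster reads were given to transcripts that contain the first constant exon (83.4% and 84.5% in young, 85.3% and 84.6% in old columns). No alpha gene passed the filter, and none held more than 7 estimated counts in a column. The alpha sum was 13 against 11 counts in I79 and 28 against 9 in I10 (log2 ratio -0.48, -1.78 to 0.79, and -1.55, -2.82 to -0.43). Of the 15 alpha genes, 5 were listed at 0 in all 4 columns, and a count of 0 allows up to 3 counts.

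The ICM libraries ask how the same genes stand when senescence is induced by the small molecule in the I79 isolate. Their tables were counted in another way than I79 young, so values are given side by side with no test. The beta genes, which share no exons, are the most direct to compare. They summed to 14.4 and 12.9 CPM (over genes listed in all tables) in the 2 ICM libraries, 13.7 ± 1.03 (SD, n = 2), beside 14.2 CPM in I79 young and 50.6 CPM in I79 old. The log2 ratio of ICM over I79 young was 0.01 (counting interval -0.28 to 0.31) and -0.13 (-0.46 to 0.19). On the same scale the ratio of I79 old over I79 young was 1.83. Genes outside the clusters also differed on this scale. CTCF stood at 18.1 and 16.9 CPM with ICM beside 52.5 in I79 young, and RAD21 at 65.5 and 57.4 beside 223. CD68 was higher, at 59.5 and 66.3 CPM beside 24.4. The way of counting and ICM cannot be told apart in these values. The intervals leave out the difference in how the tables were counted, so they give no test of ICM against I79 old. Of the 16 beta genes, 8 were above I79 young in both ICM libraries and 8 below. PCDHB16 stood at 2.12 and 1.51 CPM with ICM beside 1.02 in I79 young, and PCDHB9 at 1.40 and 1.33 beside 0.497. PCDHB13 stood at 0.803 and 0.847 CPM beside 1.96, PCDHB15 at 0.104 and 0.565 beside 1.69 and PCDHB5 at 0.621 and 0.471 beside 1.24. Each of these values rests on few reads (27.3 and 16.0 for PCDHB16, 1.33 and 6.00 for PCDHB15), and no test was run.

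The gamma genes summed to 120 and 123 CPM in the ICM libraries, 122 ± 2.33 (SD, n = 2), and to 461 CPM in I79 young, a log2 ratio of -1.92. The ICM tables gave no gamma gene a read in the 3′ untranslated region, which lies in the last constant exon, so these reads at least were counted in another way than in I79 young. Whether reads on the coding constant exons were given to the genes is not stated. Taking all constant exon reads as missing and with the counts of I79 young scaled to the 56.1% that falls to variable exons by length, the ratio was -1.09. The counting difference and ICM cannot be told apart in these sums. The alpha genes held 24.8 and 20.2 reads in the ICM libraries and 13 estimated counts in I79 young.

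Shares within the gamma cluster are given for I79 young and I79 old both as deposited and scaled to the variable exons. PCDHGC3 held 33.6% and 33.4% of gamma reads in the ICM libraries, and 35.9% in I79 young and 21.4% in I79 old as deposited. Scaled to the variable exons, it held 27.3% in I79 young and 13.1% in I79 old, so whether its share was below or above I79 young with ICM depends on the counting. PCDHGA4 held 3.91% and 3.77% with ICM, between I79 young (1.58%, or 2.12% scaled) and I79 old (9.76%, or 9.56% scaled). PCDHGB4 held 8.27% and 9.66%, above both I79 young (5.43%, or 7.12% scaled) and I79 old (3.38%, or 4.25% scaled). Together the 8 upstream genes held 16.4% and 18.4% in the ICM libraries, between I79 young (11.0%, or 14.4% scaled) and I79 old (28.9%, or 33.5% scaled). No test was run, since I79 young and I79 old were 1 column each.

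**Figure D5:**
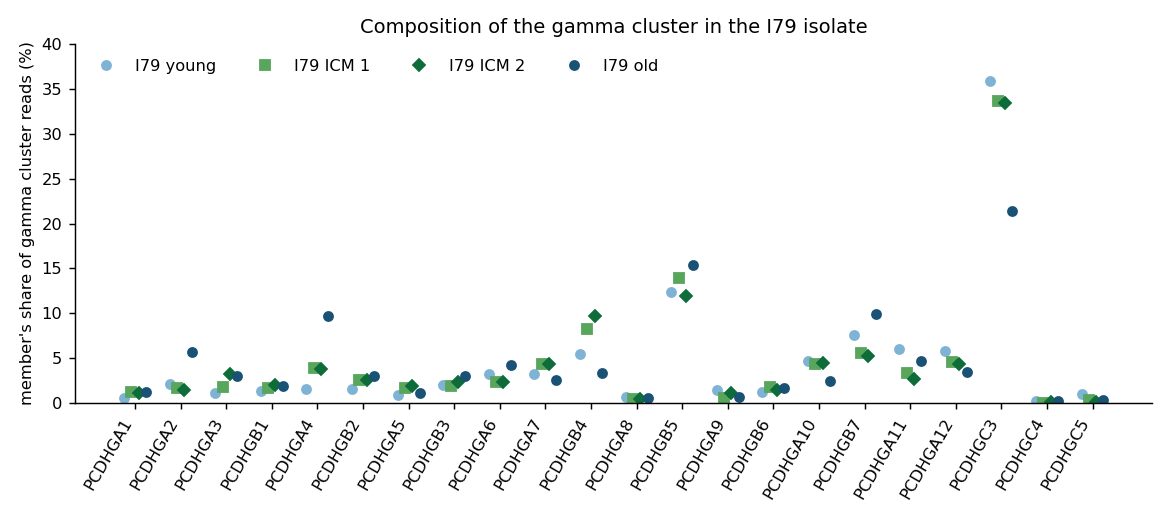
Share of gamma cluster reads held by each of the 22 gamma members in I79 young, the 2 ICM libraries (points of their own) and I79 old, in chromosomal order, in percent. As deposited, PCDHGC3 holds 35.9% in I79 young, 33.6% and 33.4% with ICM (counted in another way) and 21.4% in I79 old, and PCDHGA4 rises from 1.58% in I79 young to 9.76% in I79 old.

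The knockdown asks whether loss of HMGB2 alone moves these genes, and its tables cannot show it for most of them. Of the 53 members, 51 were listed at 0 in all 4 libraries, although the old and young columns of the same cell line held 6057 to 7953 estimated counts of gamma genes. The tables also held rows named for the whole loci. PCDHG@ held 348 and 469 counts in WT and 391 and 526 in HMGB2 KD, PCDHB@ 125 and 135 and 150 and 167, and PCDHA@ 4 and 8 and 7 and 8. How members and loci were annotated for counting is not given in the sources used here.

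For the locus rows, the WT and HMGB2 KD libraries overlapped for PCDHG@ and did not for PCDHB@. Neither reached the threshold, and a lack of overlap adds no support beyond the test of the same libraries. PCDHG@ stood at 10.2 and 12.6 CPM (WT) and 10.7 and 13.2 CPM (HMGB2 KD), with a fitted log2 fold change of 0.07 (SE 0.18, edgeR adjusted p 0.87). PCDHB@ stood at 3.65 and 3.62 CPM (WT) and 4.10 and 4.19 CPM (HMGB2 KD) (0.19, SE 0.25, adjusted p 0.71 by edgeR). PCDHA@ was too low to be tested. Of the members, PCDHB15 was the only one tested, with 12 and 10 counts in WT and 15 and 18 in HMGB2 KD (0.48, SE 0.66, adjusted p 0.73 by edgeR). PCDHGA1 had 2 and 4 and 2 and 1 counts. By edgeR, 0 members were called, 0 had an unadjusted p under 0.05, and DESeq2 also called 0, beside 5.2% of 15338 genes called. The labels do not say whether the replicates were separate cultures, so these p-values measure the spread between libraries, which may be technical.

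Of 26 regulators of the clusters (CTCF, cohesin and its loaders, and DNA and histone methylation enzymes), none was called higher and 4 were called lower in old cells. Of all genes tested, 5.75% were called higher and 3.82% lower. The regulators had a median of -0.32 (all genes, -0.01). SMC1A, a subunit of the cohesin ring, stood at 113 and 121 CPM in young and 50.6 and 54.1 CPM in old columns (log2 fold change -1.16, SE 0.10). DNMT1, the maintenance DNA methyltransferase, changed by -1.14 (SE 0.11), the histone demethylase KDM1A by -0.98 (SE 0.11) and the heterochromatin protein gene CBX5 by -0.77 (SE 0.10). CTCF itself stood at 46.1 and 45.0 CPM in young and 27.5 and 23.4 CPM in old columns (-0.84, SE 0.12), and its adjusted p of 0.011 by edgeR missed the threshold. With HMGB2 knockdown, none of 25 tested regulators was called in either direction, beside 5.2% of all genes, and CTCF had a log2 fold change of 0.13 (SE 0.12).

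Of 15 partners in signalling and processing, 1 was called higher in old cells, which is near the 5.75% of all genes called higher. The called gene was ADAM10, a protease that sheds the extracellular part of gamma protocadherins, at 200 and 199 CPM in young and 468 and 436 CPM in old columns (log2 fold change 1.18, SE 0.12, adjusted p 0.0056 by edgeR). None of these 15 was called with HMGB2 knockdown, beside 5.2% of all genes.

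Of 18 non-clustered protocadherins and FAT or DCHS cadherins, 8 were tested in old against young cells, with a median of -0.79 (all genes, -0.01). Among them PCDH9 was called lower, at 12.5 and 16.6 CPM in young and 4.83 and 5.03 CPM in old columns (-1.55, SE 0.19, adjusted p 0.0080 by edgeR). With HMGB2 knockdown, 9 were tested, of which PCDH18 was called lower (-0.73, SE 0.15) and DCHS1 higher (0.65, SE 0.14). Of 7 classical cadherins, 6 were tested, CDH13 was called higher (1.49, SE 0.13) and CDH2 lower (-1.34, SE 0.11) in old cells, while CDH6 (1.25, SE 0.14) and CDH2 (0.74, SE 0.13) were called higher in HMGB2 KD. Of 20 genes that flank the clusters on chromosome 5, 16 were tested in old against young cells, with a median of -0.13 (all genes, -0.01). Only HARS2, a mitochondrial histidyl-tRNA synthetase, was called (-1.80, SE 0.15), and none of 18 was called with HMGB2 knockdown. The all-gene shares to set beside the calls in these lists were 5.75% (higher in old), 3.82% (lower in old) and 5.2% (knockdown, both directions).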

How the data were processed

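Poly(A)-selected RNA-seq of IMR90 was analysed. For each old or young group the authors deposited 1 table of estimated counts and TPM per transcript, which was treated as a pooled column. For WT and HMGB2 KD they deposited raw counts per gene, and for ICM, estimated counts per gene and transcript region, with fractions for shared reads. Submitters' processing notes name STAR 2.6.0c, featureCounts and GRCh37. Strand use is not given in the sources used here. Summary rows of the raw count tables (16.9% to 18.0%) were left out.

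Estimated counts were summed per gene through GENCODE v44 lifted to GRCh37 (97.7% of transcript IDs matched) and rounded. The members, gene lists and tests were chosen with earlier results of these data known. Named with values are the members called or at 1 CPM or more in a group, and called list genes (at most 6 a list). edgeR 4.0.16 (R 4.3.3) was used with TMM, filterByExpr and Benjamini-Hochberg adjustment over all genes, and isolate as a covariate for old against young. Log2 ratios of single genes within an isolate have a prior count of 2. The steps were tested on simulated data in which 200 genes carried a log2 change of 1.5. For old against young (15115 genes), 75.5% of these were recovered with 19 false calls. For the knockdown (15338 genes), 71.5% were recovered with 3 false calls. For old against young, false calls thus made up more of the calls than the adjusted p threshold allows. That threshold was not held in this simulation, so the calls in old cells may include more false ones than it states. No replicate pair was a duplicate, with a chi-square per degree of freedom of 2.23 or more. Intervals and limits cover counting error only, as the reads carry no molecular identifiers. DESeq2 1.42.0, 1 RUVs factor, a replicate block, other scalings and filters were tried as alternatives.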

Additional observations from a re-analysis of the deposited data

Results flagged for a closer look

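With TMM scaling, PCDHGB4 moved in opposite directions in the isolates, beyond counting error in both. It was lower in I79 old than in I79 young by a log2 ratio of -0.97 (95% counting interval -1.24 to -0.73) and higher in I10 old than in I10 young by 0.25 (0.05 to 0.45), and the difference between the isolates was -1.22. With library totals the I10 ratio was -0.01 (-0.21 to 0.19) and the I79 ratio -1.14 (-1.40 to -0.89), so the opposite direction was lost. The difference was not tested, since each isolate has 1 column a group, and 26.6% of this gene's 31-base words were its own.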

How the results depend on the processing

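No tested member changed sign under any alternative of the old against young test. Leaving out an isolate would leave no residual degrees of freedom and was not run, and the ratios within each isolate stand in the report. The count of members called there was 4 of 32, beside 1446 of all 15115 genes. Dropping the low-count filter gave 14 of 48 members, beside 4265 of 28880 genes. An adjusted p under 0.05 gave 11 of 32 (3860 of 15115 genes). DESeq2 size factors gave 4 of 32 (1715 of 15115 genes) and the DESeq2 Wald test 5 of 53 (2117 of 57792 genes). Length-scaled counts from TPM gave 4 of 31 (1505 of 15454 genes). The fit without isolate gave 4 of 32 (1753 of 15115 genes). It lost PCDHGC3 (adjusted p 0.011 by edgeR) and gained PCDHGA3 (0.0090), for 3 higher and 1 lower. Over the settings at 0.01, that of the report included, the adjusted p by edgeR or DESeq2 had its highest value at 0.0085 for PCDHB16, 0.0097 for PCDHGA12 and 0.0047 for PCDHGA4. With library totals, the PCDHB sum changed by 0.54 in I10 and the PCDHG sum by -0.46 in I79 and -0.55 in I10. For ICM against I79 young, coding and noncoding reads only gave 1.24 (PCDHA), 0.19 (PCDHB) and -1.38 (PCDHG), TMM 1.03 for PCDHA, and young counts scaled to the variable exons (added after the data were seen) 1.20 for PCDHA and -1.09 for PCDHG. With WT as the control the ratio was 5.36 for PCDHB and reversed to 10.5 for PCDHG, as WT lists nearly all members at 0, and PCDHA gave no value. Without either ICM replicate the ratios were 1.00 to 1.02, -0.14 to 0.02 and -1.94 to -1.90. With 0 members called in the knockdown under every setting, including the replicate block (a paired fit, 0 called, all genes 1243 in place of 797), no call could be lost there. The numbers of WT and HMGB2 KD are not said to pair libraries, and the deviations of same-numbered libraries had a correlation of 0.12. All genes called came to 312 without HMGB2 KD replicate 2, 548 without WT replicate 1, 833 without WT replicate 2 and 999 without HMGB2 KD replicate 1. In the knockdown, the PCDHB sum (PCDHB15 alone) had a log2 ratio of 0.49, and 0.30 to 0.68 without single libraries, while PCDHA and PCDHG, at 0 to 4 counts, gave no ratio. Depth limits the alpha genes and the beta genes, at no more than 34 estimated counts each in the young columns.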
